A study of Rattus norvegicus with 4 samples.

Results

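The genes described are 8 genes of oligodendrocyte precursors and of the step from precursor to oligodendrocyte: Pdgfra, Cspg4, Neu4, Bcas1, Vcan, Olig1, Olig2 and Sox10. They were chosen by name, with earlier results of these data known. Every probe whose annotation gives exactly 1 of them was used, which is 12 probes of the 23535 that carry 1 gene, and 8 genes of 14878. The study used 4 rats, all adult male Wistar animals, and RNA was taken from the striatum, where most input to the basal ganglia arrives. To irradiate, a gamma knife, which focuses gamma rays through the intact skull, gave 1 striatum a central maximum of 60 Gy over 30 min through a 4 mm collimator, and tissue was taken 16 h later. The irradiated left striatum was compared with control left striatum. On the other side, un-irradiated right striatum from rats irradiated on the left was compared with control right striatum. The labels do not say how much of the dissected striatum received the full dose or whether RNA of several rats was pooled, and the un-irradiated side belongs to animals that were irradiated.

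Each side was measured on 2 two-colour Agilent arrays with the dyes swapped: the RNA of irradiated rats was labelled with Cy5 on array 1 and with Cy3 on array 2. The arrays of a side bear the same replicate number and source names, so each side is 1 replicate read with both dye orientations, and no p-value was computed. Values are log2 of the RNA of irradiated rats over the RNA of control rats. Each mean is over both arrays, and ± gives how far each array lies from it, a technical spread with nothing in it of the variation between animals. A gene was called lower or higher when both arrays put it past 1.5-fold (0.58 in log2) the same way. The file holds ratios without spot brightness, so absolute levels, background and the presence of the labelled tissue or cell types could not be checked. In such bulk tissue, fewer cells of a type and less RNA per cell cannot be told apart.

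Oligodendrocyte precursors are dividing glial cells that persist in the adult brain and give rise to the cells that make myelin. They divide and survive in response to platelet-derived growth factor A, which they bind through the receptor tyrosine kinase Pdgfra, and they carry the surface proteoglycan NG2, the product of Cspg4. The transcription factors Olig1, Olig2 and Sox10 are held through the whole lineage, from precursor to myelinating cell, whereas Pdgfra and Cspg4 are lost as precursors mature and Bcas1 marks cells at the start of myelination. Some of these genes are also used by other cells: Pdgfra and Vcan by fibroblasts of the meninges, and Cspg4 by pericytes of the vessel wall.

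In the irradiated left striatum the growth factor receptor Pdgfra stood 5.46-fold below control, the sialidase Neu4 2.73-fold, Bcas1 1.9-fold, the proteoglycan versican (Vcan) 1.87-fold and the transcription factor Olig1 1.83-fold. These 5 of the 8 genes were called lower and 0 higher, where 1.03% of all 14878 genes were called lower and 1.18% higher. Since the 8 were chosen with earlier results of these data known, such shares describe them and are no test. All 8 genes were below 0 on both left arrays, as were 23.0% of all genes. The median over the 8 genes was -0.89, beside 0.0011 over all genes. In the un-irradiated right striatum 1 of the 8 genes, Pdgfra, was called lower and 0 higher, where 1.46% of all genes were called lower and 1.71% higher. All 8 were again below 0 on both arrays, as were 21.6% of all genes, and their median was -0.61 beside -0.011 over all genes. Of all genes 8.66% were below 0 on all 4 arrays, as the 8 were. By probe, 8 of the 12 were called lower on the left and 2 on the right, where 1.23% and 1.67% of all probes with 1 gene were.

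**Figure D1:**
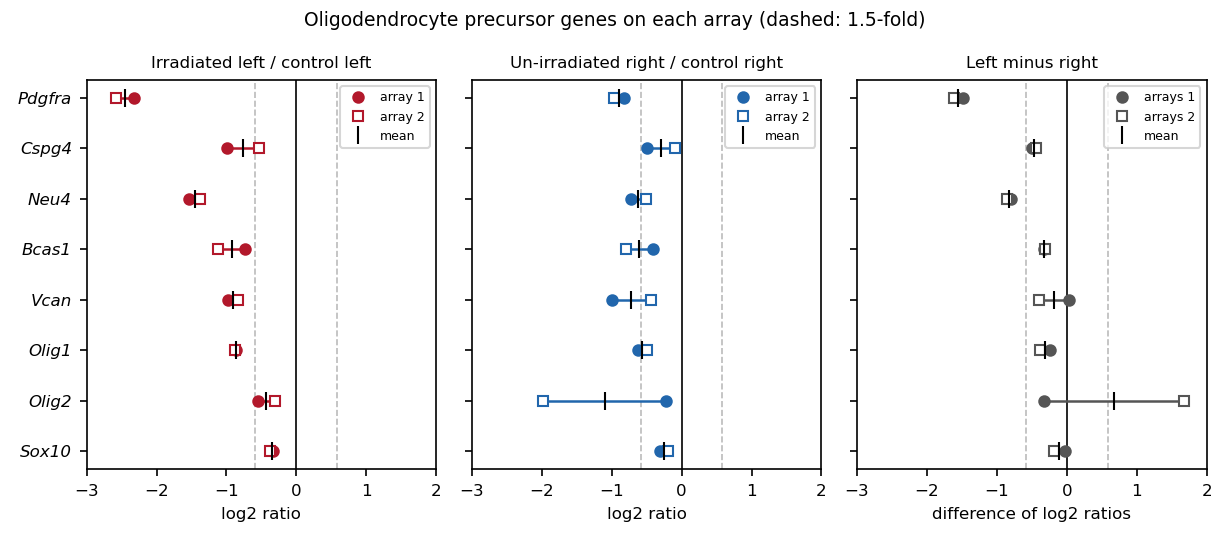
Log2 ratio of each of the 8 genes on array 1 (filled circle) and array 2 (open square) with their mean (bar), for the irradiated left striatum over control left, the un-irradiated right striatum over control right, and the difference of left minus right within each dye orientation; dashed lines stand at 1.5-fold. Every circle and square of the left and middle panels is below 0, and Pdgfra lies furthest below on the left, at -2.45.

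Pdgfra, the receptor for platelet-derived growth factor A, is read by 1 probe, designed on a RefSeq mRNA. It had -2.32 on array 1 and -2.58 on array 2 of the irradiated left side, and -0.83 and -0.96 on arrays 1 and 2 of the un-irradiated right side. Both arrays of each side thus put it below control. The left arrays read lower than the right ones, and the arrays of a side are technical readings of 1 replicate. The means were -2.45 ± 0.13 on the left and -0.90 ± 0.07 on the right, or 18.3% of control RNA on the left and 53.7% on the right. On the left it had the second lowest mean of all 14878 genes, and it was again rank 2 when genes were ordered by the array closer to 0. On the right it was rank 454 by its mean and rank 91 by the array closer to 0.

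Neu4, a sialidase that removes sialic acid from glycans and is found in brain, is likewise read by 1 RefSeq mRNA probe. It had -1.53 and -1.37 on the left arrays and -0.73 and -0.51 on the right arrays. The left mean was -1.45 ± 0.08, or 36.6% of control, and rank 32 of all genes. On the right its mean of -0.62 ± 0.11 was past the threshold while array 2 was not, so it was not called there. Pdgfra and Neu4 were the 2 of the 8 genes past 2-fold on both left arrays, where 0.188% of all genes were.

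The stretches before the starts of these 2 genes are shown because they had the lowest values on the left. They are the 250 bases upstream of the start in the RefSeq promoter table, build GRCr8, with Pdgfra at chr14:33408517-33408766 on the minus strand and Neu4 at chr9:101844011-101844260 on the plus strand. Capitals mark every E-box, CANNTG, the motif of basic helix-loop-helix factors such as Olig1 and Olig2.
Pdgfra: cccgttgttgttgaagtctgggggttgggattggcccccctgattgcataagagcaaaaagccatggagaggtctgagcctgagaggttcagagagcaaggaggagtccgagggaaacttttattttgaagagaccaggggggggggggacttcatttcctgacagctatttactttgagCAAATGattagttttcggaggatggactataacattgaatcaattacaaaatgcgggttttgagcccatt
Neu4: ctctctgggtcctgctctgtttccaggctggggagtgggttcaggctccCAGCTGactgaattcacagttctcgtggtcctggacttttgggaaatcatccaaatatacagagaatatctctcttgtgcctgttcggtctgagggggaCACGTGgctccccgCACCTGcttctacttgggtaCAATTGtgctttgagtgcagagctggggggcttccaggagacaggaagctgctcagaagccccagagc
The Pdgfra stretch holds 1 E-box and the Neu4 stretch 4, of which 1 is CAGCTG, a motif contained in CANNTG. Of all 33469 promoters in the table, 65.5% hold CANNTG on these 250 bases and 12% hold CAGCTG. The table has 5 of the 8 genes, with 2 starts for Vcan, and 3 of these 6 stretches hold CANNTG. The SOX core motif AACAAT, searched on both strands, is in 0 of the 6 stretches and in 10.3% of all promoters. Olig1, Sox10 and Bcas1 have no entry there. These matches describe the letters of these windows only.

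Bcas1, a protein of cells that begin to form myelin, is read by 3 probes. Over their mean it had -0.74 and -1.11 on the left arrays and -0.41 and -0.80 on the right arrays. The left arrays were both past 1.5-fold, with a mean of -0.93 ± 0.19, and on the right array 2 was past it and array 1 was not (-0.60 ± 0.19). All 3 probes were called lower on the left. The RefSeq mRNA probe had -0.78 and -0.85 there, and the probe on a cDNA had -0.79 and -0.72. The probe on an expressed sequence tag had -0.64 and -1.77, the widest gap between arrays among the 3. On the right the RefSeq probe had -0.72 and -0.53, past the threshold on array 1 only, and the cDNA probe had -0.51 and -0.53, short of it on both, whereas the tag probe had -0.0033 and -1.33.

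Vcan encodes versican, a large chondroitin sulphate proteoglycan of the extracellular matrix, and also has 3 probes. Over their mean it had -0.97 and -0.84 on the left arrays and -1.0 and -0.44 on the right arrays. Its left mean was -0.91 ± 0.07 and its right mean -0.72 ± 0.28. The narrow left range is a mean over probes that differ: the 2 RefSeq mRNA probes had -0.85 and -1.60, and -1.09 and -1.91, and the probe on an expressed sequence tag had -0.98 and 1.0. As deposited, red over green, that tag probe read -0.98 and -1.0 on the left arrays and -1.74 and -1.30 on the right arrays, so its sign followed the dye and not the sample. On the right the RefSeq probes had -0.82 and -1.07, and -0.44 and -1.55. With RefSeq mRNA probes alone Vcan was called lower on both sides, with a left mean of -1.36 and a right mean of -0.97.

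**Figure D2:**
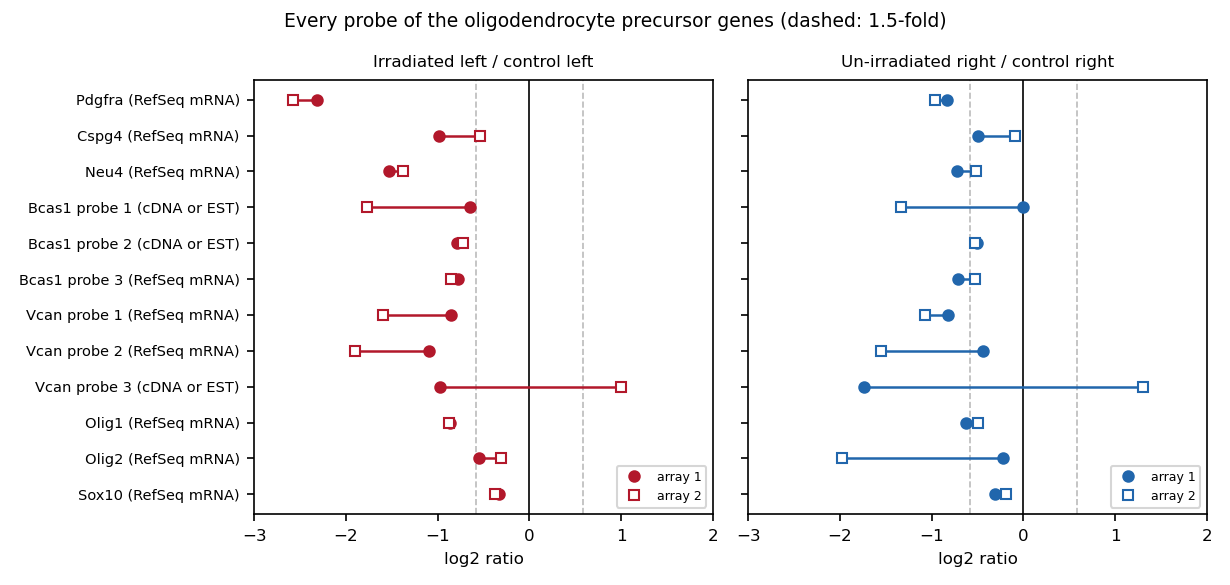
Log2 ratio of each of the 12 probes on array 1 (filled circle) and array 2 (open square) for the irradiated left over control left and the un-irradiated right over control right, with the kind of sequence each probe was designed on; dashed lines stand at 1.5-fold. On each side 11 of the 12 probes lie below 0 on both arrays, and Vcan probe 3 lies on opposite sides of 0.

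Cspg4, the NG2 proteoglycan, had -0.99 and -0.53 on the left arrays and -0.50 and -0.091 on the right arrays. Its left mean of -0.76 ± 0.23 was past the threshold, but array 2 was short of it, so it was not called on either side. The right mean was -0.30 ± 0.20. Its values thus ran in the same direction as those of Pdgfra, the other surface marker of precursors, with a smaller size on each side.

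The transcription factors are read by 1 probe each. Olig1, a basic helix-loop-helix factor of oligodendrocyte maturation, had -0.86 and -0.88 on the left arrays, the closest pair among the 8 genes, and -0.63 and -0.49 on the right arrays. Its means were -0.87 ± 0.0064 on the left and -0.56 ± 0.07 on the right. Olig2, its relative that specifies the lineage and lies next to it in the annotation with 0 protein-coding genes between them, had -0.55 and -0.31 on the left arrays and -0.22 and -1.98 on the right arrays. The left values were small and close, with a mean of -0.43 ± 0.12, whereas the right mean of -1.10 ± 0.88 rests on array 2. Sox10, an HMG-box factor needed for myelin gene expression, had -0.33 and -0.38 on the left arrays and -0.31 and -0.19 on the right arrays, with a left mean of -0.35 ± 0.02 and a right mean of -0.25 ± 0.06. Sox10 lay nearest to control of the 8 genes on the left by its mean, with Olig2 next to it.

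**Figure D3:**
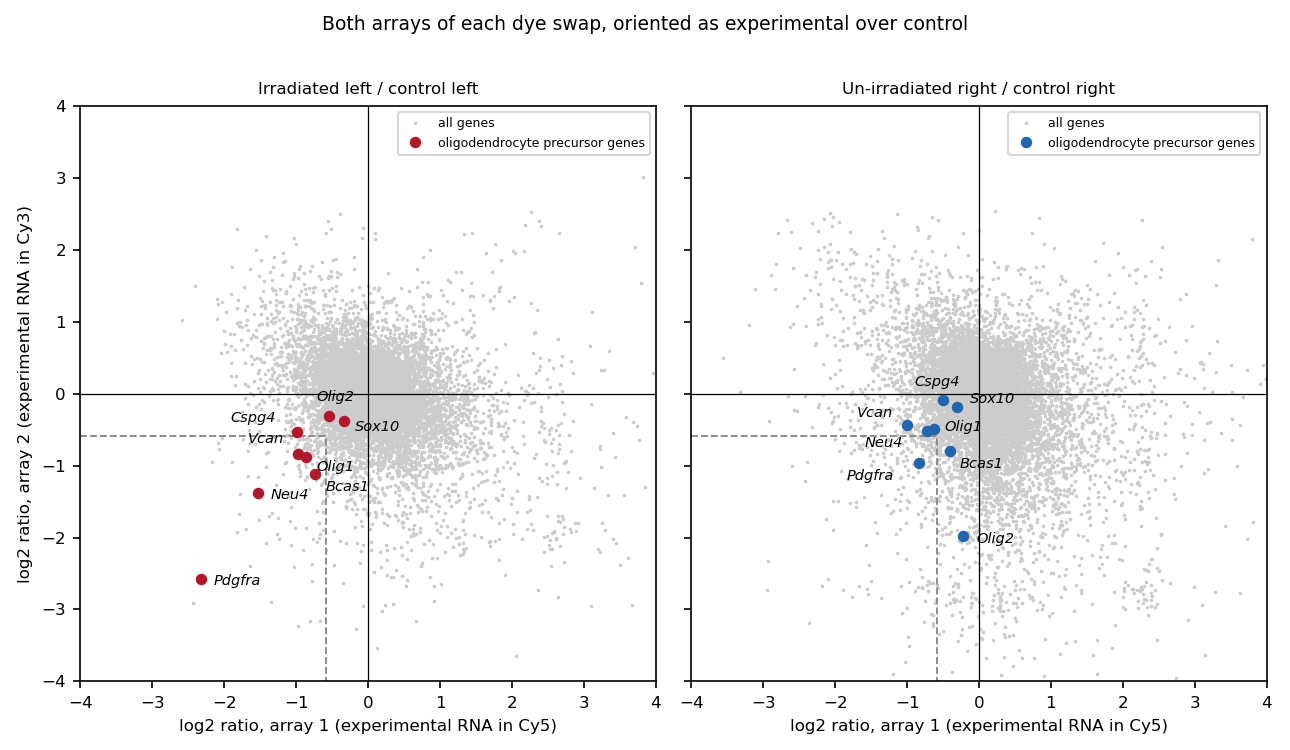
Log2 ratio on array 1 (x axis) against array 2 (y axis) for all 14878 genes (grey) and the 8 precursor genes (coloured) on the left and right sides; dashed lines bound the area past 1.5-fold lower on both arrays. Pdgfra lies far into the lower left corner on the irradiated side, and 11 genes on the left and 55 on the right fall outside the axes.

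The difference between sides was taken within each dye orientation, as left minus right. Pdgfra (-1.49 and -1.61, mean -1.55 ± 0.06) and Neu4 (-0.80 and -0.86, mean -0.83 ± 0.03) were past 1.5-fold lower on the left in both orientations. These are 2 of the 8 genes, where 2.26% of all genes were called lower and 2.59% higher, and 0 of the 8 were called higher. Pdgfra alone was past 2-fold, where 0.706% of all genes were. Cspg4 (-0.47 ± 0.02), Bcas1 (-0.32 ± 0.01), Olig1 (-0.31 ± 0.08) and Sox10 (-0.11 ± 0.08) were lower on the left in both orientations without being called. That makes 6 of the 8 genes below 0 in both, as 27.1% of all genes were. Vcan (-0.19 ± 0.21) and Olig2 (0.67 ± 1.0) had differences of opposite sign in the 2 orientations. For Vcan this came from the tag probe whose sign followed the dye, at 0.76 and -0.30. Its 2 RefSeq mRNA probes were below 0 in both orientations, at -0.03 and -0.53, and -0.66 and -0.36. With RefSeq mRNA probes alone the mean difference of Vcan was -0.39. The median difference over the 8 genes was -0.32, beside 0.016 over all genes. Both striata came from the irradiated rats, so the sides are not independent, and with 1 replicate a side the difference was not tested.

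The 3 genes closest to Pdgfra over the 4 array values, by Euclidean distance on the log2 scale among all genes, were P2ry12, Tmem255b and Fam89a, at distances of 0.46, 1.25 and 1.34. P2ry12, the ADP receptor of resting microglia, had -2.43 and -2.91 on the left arrays and -1.14 and -0.97 on the right arrays, and was the 1 gene with a lower left mean than Pdgfra. Neu4 came next, at 1.51. The rest of the 8 genes were further away, from rank 26 for Bcas1 to rank 635 for Olig2. All 3 nearest genes are read by 1 probe each.

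Of 30 other genes of the precursor lineage listed, 23 were measured. On the left 1 was called lower and 0 higher, with a median of -0.24, and on the right 0 were called in either direction, with a median of -0.04. The 1 gene was Hes5, a Notch effector also expressed by astrocytes, with -0.89 and -0.74 on the left arrays and -0.32 and 0.06 on the right arrays. On the left 11 of the 23 were below 0 on both arrays and 1 above, and on the right 5 were below and 7 above. Sox8, a relative of Sox10, was the 1 called lower in left minus right (-1.12 ± 0.26), and is named after its values were seen. It had 0.15 and -1.19 on the left arrays and 1.01 and 0.20 on the right arrays, and was not called on either side.

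Of 10 genes that bind or transmit platelet-derived growth factor, 0 were called on either side, with medians of -0.11 on the left and 0.11 on the right. Pdgfa, the ligand of Pdgfra on precursors, had 0.02 and -0.13 on the left arrays and 0.18 and 0.13 on the right arrays, near control throughout. Pdgfrb, the related receptor of pericytes, had -0.16 and -0.58 on the left arrays and 0.69 and -0.18 on the right arrays. Neither was close to the values of Pdgfra. Pdgfd, another ligand, was called lower in left minus right (-1.06 ± 0.18), which was likewise singled out after its values were seen.

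Versican belongs to the lecticans, proteoglycans that bind hyaluronan and are cut by Adamts proteases. Of 10 related matrix genes 1 was called higher on the left and 0 lower, and 1 lower on the right and 0 higher. Adamts1, a protease that cleaves versican, had 2.26 and 1.26 on the left arrays and 1.53 and -0.32 on the right arrays, with a left mean of 1.76 ± 0.50. Adamts5, another such protease, had -0.65 and -0.32 on the left arrays and -0.80 and -1.63 on the right arrays and was called lower on the right (-1.21 ± 0.42). The lecticans brevican (Bcan, -0.47 ± 0.23 on the left and -0.27 ± 0.39 on the right) and neurocan (Ncan, 0.14 ± 0.17 and -0.04 ± 0.20) were not called. The other sialidases, Neu1, Neu2 and Neu3, had left means of 0.14, -0.12 and -0.14 and right means of 0.15, -0.32 and -0.02, and none of these 3 was called on either side.

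Genes of mature oligodendrocytes give the other end of the lineage. Of 20 listed 18 were measured, and 0 were called in either direction on either side. Their median was -0.23 on the left and -0.32 on the right. On the left 10 of the 18 were below 0 on both arrays and 2 above, and on the right 14 were below and 1 above. The myelin genes with the lowest left means were Mal at -0.60 ± 0.11, Mobp at -0.58 ± 0.04 and Opalin at -0.58 ± 0.04, with right means of -0.47 ± 0.23, -0.54 ± 0.10 and -0.40 ± 0.13. In left minus right their list had a median of 0.03 and 0 of 18 called, beside the -0.32 and 2 of 8 of the precursor genes. Other lists ran lower than the precursor genes in left minus right: the median was -0.96 for meningeal and fibroblast genes, with 7 of 13 called lower, -0.67 for cortical excitatory neuron genes, with 2 of 6, and -0.44 for microglial genes, with 2 of 11.

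**Figure D4:**
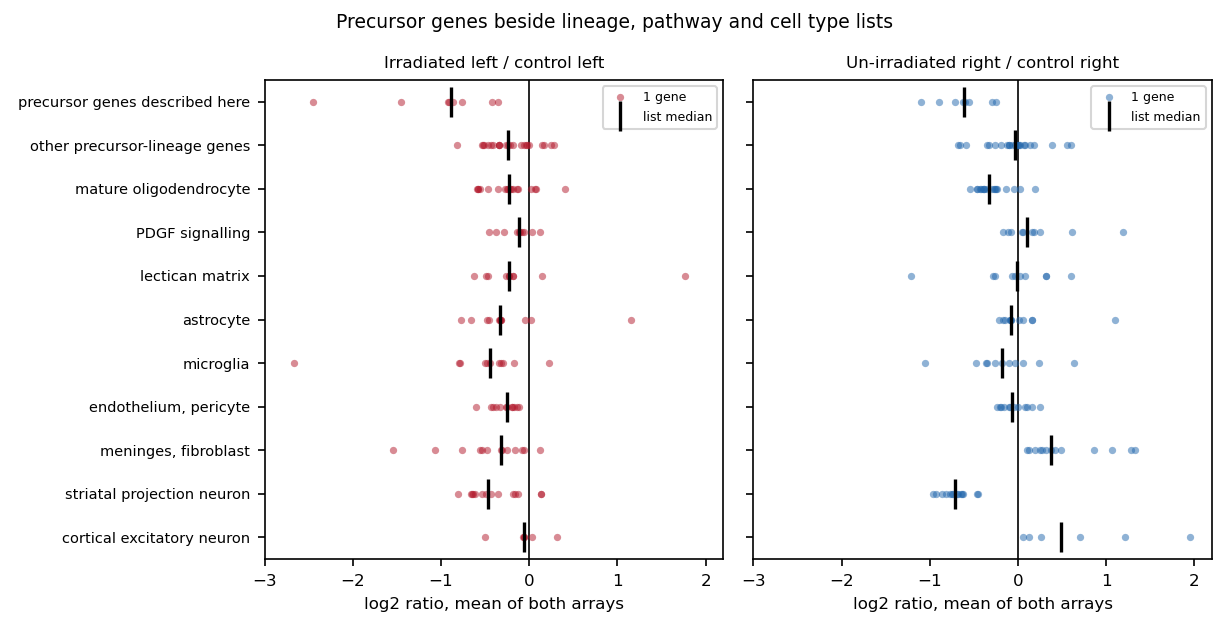
Mean log2 ratio over both arrays for each gene (points) of the 8 precursor genes and of 10 lists of lineage, pathway and cell type genes (the 3 other sialidases are not plotted), with each list's median (bar), for the irradiated left over control left and the un-irradiated right over control right. The precursor genes have the lowest median of these lists on the left (-0.89), and the striatal projection neuron list has the lowest on the right (-0.71).

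Markers of other cell types differed from control as well, and their part in the values of the precursor genes was not tested. On the left the medians were -0.44 for 11 microglial genes (3 lower, 0 higher), -0.34 for 12 astrocyte genes (2 lower, 1 higher), -0.26 for 12 genes of endothelium and pericytes (0 called) and -0.46 for 14 genes of striatal projection neurons (1 lower). The genes called were P2ry12, C1qa and Ctss of the microglial list, Gjb6 and Slco1c1 (lower) and Gfap (higher) of the astrocyte list, and Rgs9 of the projection neuron list. Slco1c1 was placed in the astrocyte list only, and whether it is particular to astrocytes was not tested. Fibroblasts of the meninges also use Pdgfra and Vcan. Of 13 meningeal and fibroblast genes 3 were lower on the left (Dcn, Ogn and Foxc1) with a median of -0.33, whereas on the right 4 were higher (Ogn, Fmod, Igf2 and Aldh1a2) with a median of 0.37 and 0 of 13 below 0 on both arrays. In left minus right 13 of the 13 meningeal genes were below 0 in both dye orientations, as 6 of the 8 precursor genes were. Pdgfra was among these 6. Vcan was not by the mean over its probes, although its 2 RefSeq mRNA probes were each below 0 in both orientations. On the right the projection neuron median was -0.71, with 7 of 14 lower (Drd1, Pdyn, Adora2a, Rgs9, Gpr6, Foxp1 and Adcy5), and 2 of 6 cortical excitatory neuron genes (Neurod2 and Slc17a7) were higher with a median of 0.48. The right medians of the glial and vascular lists were -0.18 for microglia, with P2ry12 lower, -0.08 for astrocytes, with Gfap higher, and -0.07 for endothelium and pericytes, with 0 called.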

How the data were processed

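The 4 arrays were read, 2 for each side. The deposited values were taken to be log10 of Cy5 (red) over Cy3 (green), as Agilent Feature Extraction writes its log ratio; version 8.1 is named in the submitters' processing notes. Its settings, the log base, the direction and the centring are not stated with the table. Column medians as deposited ran from 0.0042 to 0.011 (log10). Values were converted to log2, and the sign of array 2 was reversed on both sides. The turn of array 2 against array 1 was checked on 5654 genes with 2 or more probes. With the sign turned, the first 2 probes of a gene correlated across genes at 0.163 (left) and 0.087 (right). Without it they correlated at 0.038 and 0.041. Genes are not independent replicates. Flipping every sign leaves these correlations unchanged, so they cannot show whether the values are red over green. As deposited, 11 of the 12 probes described here had opposite signs on the 2 arrays of each side, as did 45.9% (left) and 42.1% (right) of all 43628 features. Over all features the arrays of a side correlated positively as deposited. Pearson r was 0.743 on the left and 0.666 on the right, and Spearman rho was 0.233 and 0.260. Why they did was not tested, and the direction remains a reading of the table.

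Probes were named from GEO's platform annotation, and Entrez identifiers gave the current symbols in the RefSeq table of GRCr8 (23488 of 23535 matched; 48 features had several genes and 20045 none). Positions are printed for the promoter windows of Pdgfra and Neu4 only. Gene positions are otherwise left out, since no source used here gives the build behind the array. A gene's value is the mean over its probes. With 1 replicate a side no test was made, and precision is limited by how few arrays there are. The calling rule was tested on simulated data with the same dye effect on every array, which says nothing of variation between animals. The 8 genes, the other gene lists and the alternatives were chosen with earlier results of these data known. Genes named are the 8, the members of the other lists called on either side, and the 3 nearest to Pdgfra; other list genes given with values (Sox8, Pdgfa, Pdgfd, Pdgfrb, Bcan, Ncan, Mal, Mobp, Opalin and the sialidases) were singled out after their values were seen. Alternatives covered centring, the choice of probes, the fold, single arrays, the direction and the log base. Python 3.11.15, numpy 2.4.6 and pandas 2.3.3 were used.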

Additional observations from a re-analysis of the deposited data

Results flagged for a closer look

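None of the 8 precursor genes lay below control on both arrays of one side and above it on both arrays of the other. Among the other genes named, 8 did, and the difference was not tested for any of them. On the left minus right scale these were the meningeal genes Ogn (-1.83), Foxc1 (-1.82), Fmod (-1.75) and Igf2 (-1.42), the growth factor Pdgfd (-1.06) and the astrocyte connexin Gjb6 (-0.93), all below control on the left and above it on the right. The dopamine receptor Drd1 (0.76) and the opioid peptide precursor Pdyn (0.87) were above control on the left and below it on the right. Their left means were 0.13 each, and their right means were -0.63 and -0.74. The count of other genes covers only those named above. Some list genes that are not named had the same pattern, and its share of all genes was not computed.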

How the results depend on the processing

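On the left, 5 of the 8 genes were called lower; the count was 2 past 2-fold, 1 with the deposited values read as log2, and 0 with array 2 not sign-reversed, and the other alternatives gave 5, or 6 on array 1 alone where Cspg4 was added. On the right the count of 1 became 2 with the median over probes, with RefSeq mRNA probes or with probes whose arrays lay close (Vcan was added each time), 4 on array 1 alone, 3 on array 2 alone, and 0 past 2-fold, with array 2 not sign-reversed or with values read as log2. The share of all genes called lower also rose on single arrays. It was 8.1% (array 1) and 9.17% (array 2) on the left, beside 1.03% with both arrays. On the right it was 8.16% and 15.3%, beside 1.46%. In left minus right the count of 2 became 1 past 2-fold and 0 with array 2 not sign-reversed or with values read as log2. Centring each array left all 3 counts as they were. With array 2 not sign-reversed the mean is the difference between orientations, and among the called values it was above 0 for Pdgfra (0.13 left, 0.068 right, 0.062 left minus right), Bcas1 (0.19 left), Olig1 (0.0064 left) and Neu4 (0.030 left minus right). Olig2 has no value where probes with distant arrays are dropped. The calls in all 3 comparisons thus rest on the reading of direction. All but that of Pdgfra on the left, which was still called with values read as log2 (-0.74), rest on the log base too. Neither is stated with the deposited values. No paired analysis was possible because each side has 1 replicate. Spot brightness was not used here, so what signal over background limits could not be assessed.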
